A study of Rattus norvegicus with 18 samples.

Results

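Col18a1 (ENSRNOG00000001229), Thbs2 (ENSRNOG00000010529) and Postn (ENSRNOG00000012660) were 3 of the 26172 Ensembl genes listed in the RNA-seq tables of rat dorsal root ganglia (DRG). They are matrix genes that were chosen by measured values, since their exonic reads were far higher after nerve injury and moved together across the injured libraries. Their difference between groups, and their shared pattern, are therefore described here without a test. The tissue was the L5 DRG, the ganglion that holds the cell bodies of the sensory neurons of the L5 spinal nerve, from Wistar rats, which per the methods were male. In the spinal nerve transection (SNT) group the L5 spinal nerve had been cut 7 days before the ganglia were taken, and the naive group was not operated on, so that effects of surgery and of the cut cannot be told apart. Each of the 3 SNT and 3 naive libraries was made from poly(A) RNA of several rats pooled, and each was sequenced in 3 runs named 17 M, 25 M and 50 M after the reads aimed for. The runs of a library are technical replicates, so groups were compared within a run, with n = 3 libraries per group.

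The extracellular matrix of a ganglion consists of basement membranes around satellite glia, Schwann cells and blood vessels, and of the collagen-rich connective tissue between them. Col18a1 encodes the chain of collagen XVIII, a basement membrane collagen that carries heparan sulfate and from whose end endostatin, an inhibitor of vessel growth, is cut. Thbs2 and Postn encode matricellular proteins, which are secreted into the matrix and signal to cells rather than bear load. Thrombospondin 2 binds cell surface receptors and matrix metalloproteinases, and periostin binds integrins and collagen and is known from healing wounds and fibrosis.

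The promoters of both members that RefSeq's promoter table holds are shown because the members moved together. In the GRCr8 build, the 250 bases before the start of Col18a1 lie at chr20:11473395-11473644 on the plus strand, with matches to the GC box in capitals. For Postn, the 30 bases at chr2:140678005-140678034 on the plus strand are given, with a TATA box in capitals. RefSeq's Postn gene itself begins before the searched window, so its start here is the one of the promoter table. For that reason only a short stretch is printed. Thbs2 was not in that table.
Col18a1: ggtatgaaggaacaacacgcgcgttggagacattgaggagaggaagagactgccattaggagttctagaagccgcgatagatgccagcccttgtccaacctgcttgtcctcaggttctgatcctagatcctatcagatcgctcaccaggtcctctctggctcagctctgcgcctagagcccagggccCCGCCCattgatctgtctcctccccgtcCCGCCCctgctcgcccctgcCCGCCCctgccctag
Postn: agcccagagctcTATAAAttcagctctcta
Both strands of the 250 bases before the start were searched for 5 motifs, and no match overlapped a match of another motif. The letters of the TATA box were TATAAA and those of the CCAAT box were the 5 of its name. The GC box was searched as GGGCGG, whose reverse complement is the form in the stretch above. The AP-1 site was searched as TGANTCA and the E-box as CANNTG. Col18a1 held 3 GC boxes, the nearest ending 10 bases before the start, and none of the other motifs. The Postn window held 1 TATA box that ended 39 bases before the start used there, 2 E-boxes and none of the other motifs. Of the 33469 promoters in the table, 30.5% held a GC box, 12.9% a TATA box and 65.5% an E-box, so the 2 windows shared no motif of the 5 and each held motifs that are common. The bases before the start were 60.4% G or C in Col18a1 and 50.8% in Postn.

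Expression is given in normalized counts, the unit of the deposited values, in which exonic reads are divided by a DESeq size factor for the library. The exonic reads recovered from them came to between 4968448 and 6154543 per library at 17 M, between 8319112 and 9951906 at 25 M, and between 15000789 and 19031166 at 50 M. Across the transcriptome SNT replicate 1 often lay between the naive libraries and the other 2 SNT libraries, as it did in 48.4% of the 17930 tested genes of the 50 M run, and member values are therefore also given without it. Normalized counts do not correct for gene length, so levels were not compared between genes.

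Col18a1, the basement membrane member, had 1057, 851 and 1266 normalized counts in naive replicates 1, 2 and 3 at 50 M. In the SNT replicates, in the same order, it had 5428, 16773 and 10646. Each SNT library thus lay above every naive library, as did those of 30.8% of the genes tested in this run, and the lowest of them was 4.29 times the highest naive one. The means were 1058 ± 208 in naive and 10949 ± 5679 in SNT libraries (SD, n = 3), a ratio of 10.3. The log2 fold change on log2(normalized count + 1) was 3.24 (standard error 0.39).

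At 25 M the counts of Col18a1 were 614, 405 and 686 in the naive libraries and 2973, 8879 and 5778 in the SNT libraries. At 17 M they were 348, 286 and 400 against 1833, 5191 and 3441. The groups did not overlap in either run, with all SNT libraries above all naive ones in 29.5% of tested genes at 25 M and 27.9% at 17 M, and the ratios of the means, 10.3 at 25 M and 10.1 at 17 M, were close to that at 50 M. The log2 fold change was 3.27 (standard error 0.39) at 25 M and 3.22 (standard error 0.34) at 17 M.

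Thbs2, the matricellular gene for thrombospondin 2, showed the largest ratio of the members. At 50 M it had 1003, 622 and 1129 normalized counts in the naive libraries, whereas the SNT replicates had 7270, 24116 and 16393. The lowest SNT library was 6.44 times the highest naive one. The group means, 918 ± 264 and 15926 ± 8432 (SD, n = 3), stood in a ratio of 17.3, and the log2 fold change was 4.0 (standard error 0.44).

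In the 25 M run Thbs2 had 556, 353 and 581 normalized counts in the naive libraries and 3809, 12654 and 8589 in the SNT libraries. At 17 M the values were 305, 221 and 346 against 2291, 7859 and 5231. Again no SNT library came near the naive ones. The ratio of means was 16.8 at 25 M and 17.6 at 17 M, with log2 fold changes of 3.94 (standard error 0.42) and 3.99 (standard error 0.41).

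Postn, which encodes periostin, had the fewest reads of the members. Its normalized counts at 50 M were 208, 134 and 270 in the naive libraries and 1286, 3436 and 2176 in the SNT libraries. All SNT libraries were higher than all naive libraries, by at least 4.76 times. The means were 204 ± 68.4 and 2299 ± 1080 (SD, n = 3), which gives a ratio of 11.3 and a log2 fold change of 3.43 (standard error 0.39).

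For Postn at 25 M the naive libraries had 114, 75.0 and 112 normalized counts and the SNT libraries 650, 1744 and 1078. At 17 M, where naive replicate 2 rested on 37 reads, they had 92.0, 42.0 and 70.2 against 397, 1159 and 737. The groups were apart in both runs, and the ratios of 11.5 and 11.2 differed little from that of the deepest run. Log2 fold changes were 3.42 (standard error 0.35) at 25 M and 3.41 (standard error 0.41) at 17 M.

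**Figure D1:**
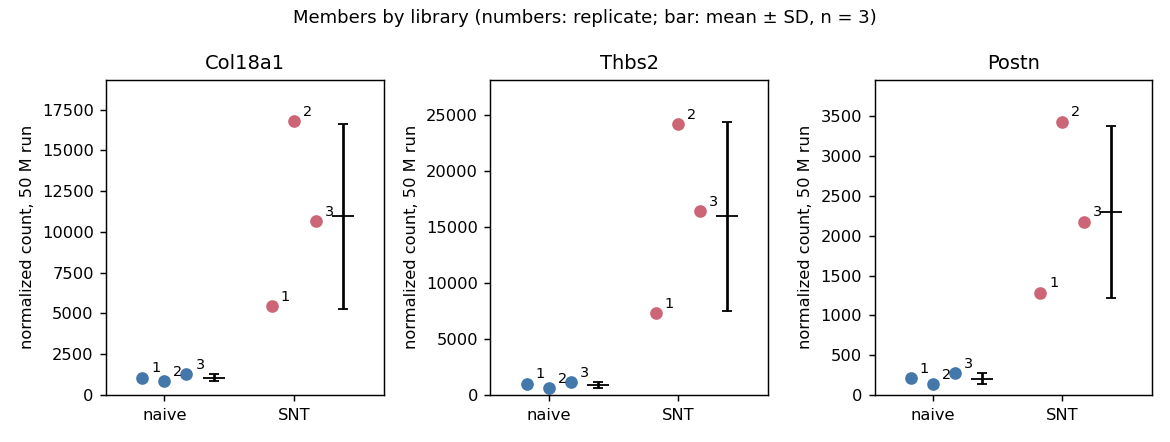
Normalized count (vertical axis, linear from 0) of Col18a1, Thbs2 and Postn in the 3 naive (blue) and 3 SNT (red) libraries of the 50 M run. Points are libraries numbered by replicate, and the black bar is the mean ± SD (n = 3). All SNT points lie above all naive points, and in each panel SNT replicate 1 is the lowest and SNT replicate 2 the highest SNT library.

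These differences put the members at the far end of the data. At 50 M only 126 of the 17930 tested genes (0.703%), Col18a1 among them, had a log2 fold change at least as large as that of Col18a1, the smallest of the members. At 25 M the number was 113 of 17226 (0.656%) and at 17 M 93 of 16820 (0.553%). Since the members were picked for this contrast, these shares describe where they stand and nothing more.

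Leaving out SNT replicate 1 raised the ratio of every member at 50 M, to 13.0 for Col18a1, 22.1 for Thbs2 and 13.8 for Postn. In that library alone the level was 5.13 times the naive mean for Col18a1, 7.92 times for Thbs2 and 6.31 times for Postn. Its distance from the naive mean was 34.5%, 32.8% and 41.6% of the mean distance of the other 2 SNT libraries, respectively. The members thus stood well above naive tissue in this library too, but at a lower level than in the other SNT libraries.

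The 3 members placed the SNT libraries in the same order in every run, with replicate 1 lowest, replicate 3 in the middle and replicate 2 highest. At 50 M the level in SNT replicate 2 over that in replicate 1 was 3.09 for Col18a1, 3.32 for Thbs2 and 2.67 for Postn. Replicate 3 over replicate 1 was 1.96, 2.25 and 1.69, in the same order of genes. The replicate 3 to replicate 2 ratio was the most alike among members, at 0.635, 0.680 and 0.633.

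This order of the SNT libraries was not particular to the members. Of the 17930 genes tested at 50 M, 3224 (18.0%) had all SNT libraries above all naive libraries in this very order, and 3130 (17.5%) showed its mirror image below the naive libraries. With only 6 libraries that fall into 2 separate groups, no correlation is given.

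**Figure D2:**
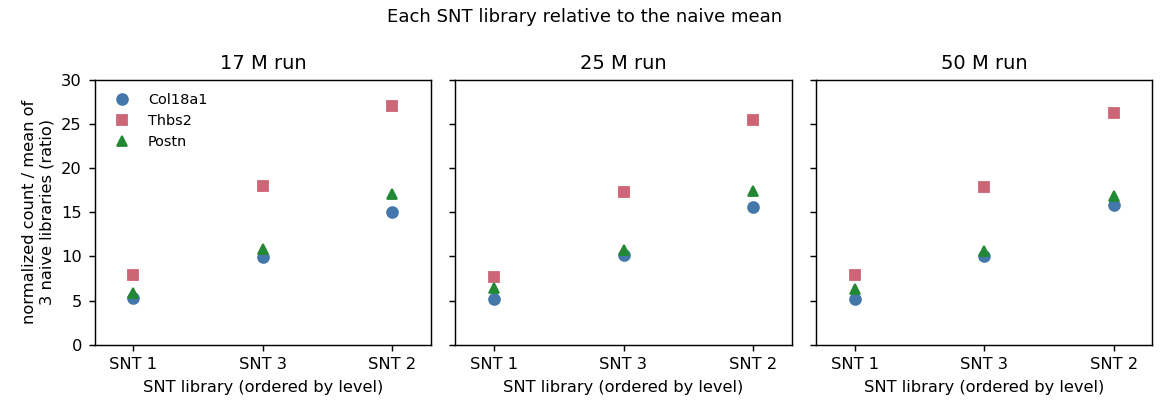
Normalized count of each SNT library divided by the mean of the 3 naive libraries of that run (vertical axis, linear ratio), for Col18a1 (blue circles), Thbs2 (red squares) and Postn (green triangles), in the 17 M, 25 M and 50 M runs. Libraries are placed by level and not by number. The 3 panels look alike, with Thbs2 highest in each library (7.92, 17.9 and 26.3 times the naive mean at 50 M) and Col18a1 and Postn close together.

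The coefficient of variation over the SNT libraries, each a pool of other animals, was 51.9% for Col18a1, 52.9% for Thbs2 and 47.0% for Postn at 50 M. Counting error, which limits the precision of a single library, was 1.06%, 0.890% and 2.25% at these depths. Among naive libraries the coefficient of variation was smaller, at 19.6%, 28.8% and 33.5%. Naive replicate 2 had the lowest value of all members in every run.

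The runs of a library gave nearly the same level. Over the 54 combinations of member, library and run, the largest departure of a run from the share of reads in all 3 runs together was 2.57 times the counting error, in SNT replicate 2 for Col18a1. Only 2 of the 18 combinations of member and library had a run more than 2 counting errors away. Thbs2 in SNT replicate 2, for example, took between 1473 and 1493 reads per M exonic reads in its runs, and 1480 with the runs summed. The largest relative departure, 27.8%, was that of Postn in naive replicate 1, with between 11.1 and 15.3 such reads. The runs of a library hold the same animals, so they are no further replicates of the groups.

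Ratios between the members within a library, in which library size cancels, showed how evenly they moved. Col18a1 over Postn at 50 M was 5.09, 6.37 and 4.68 in the naive libraries and 4.22, 4.88 and 4.89 in the SNT libraries. Its range within the SNT group was narrow (highest over lowest 1.16), although each gene alone differed at least 2.67-fold between the lowest and the highest of these libraries. The ranges of the groups overlapped at 50 M and 17 M, but not at 25 M, where the lowest naive library had 5.38 and the highest SNT library 5.36. At 50 M the means were 5.38 ± 0.880 in naive and 4.67 ± 0.386 in SNT libraries (SD, n = 3).

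Thbs2 departed from the other members. Col18a1 over Thbs2 at 50 M was 1.05, 1.37 and 1.12 in the naive libraries and 0.747, 0.696 and 0.649 in the SNT libraries. No SNT library reached a naive one, in this or the other runs, and the means were 1.18 ± 0.166 and 0.697 ± 0.0486 (SD, n = 3). Thbs2 over Postn went the other way, from 4.83, 4.65 and 4.18 in naive to 5.65, 7.02 and 7.53 in SNT libraries.

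Within the SNT group the ratio of Thbs2 to Postn was lowest in replicate 1 in every run, with 5.78 at 17 M and 5.86 at 25 M. At these depths the other SNT libraries had 6.78 and 7.10, and 7.26 and 7.97. In the SNT tissue Thbs2 thus stood higher relative to Postn and Col18a1 than in naive tissue, and these ratios are descriptions from the contrast by which the genes were picked.

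**Figure D3:**
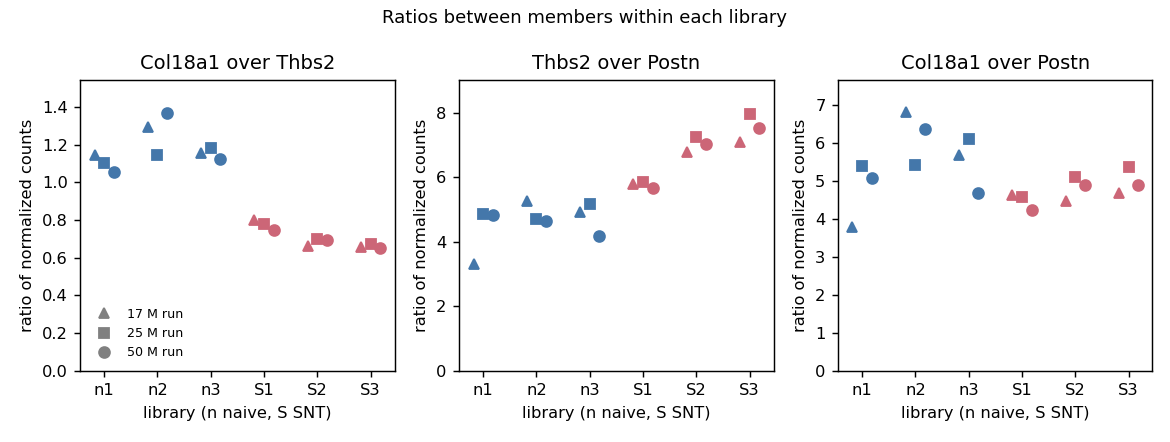
Ratio of the normalized counts of 2 members within each library (vertical axis, linear from 0), for the naive libraries (blue, n1 to n3) and the SNT libraries (red, S1 to S3), with a triangle, square and circle for the 17 M, 25 M and 50 M runs. Col18a1 over Thbs2 separates the groups in every run (1.18 ± 0.166 in naive and 0.697 ± 0.0486 in SNT libraries at 50 M), while Col18a1 over Postn separates them narrowly at 25 M and overlaps at 17 M and 50 M.

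The genes with the most similar pattern were sought over the 6 libraries at 50 M, by the root mean square difference of log2(normalized count + 1) after the naive mean was taken off. There were 14088 candidates, each averaging 20 normalized counts or more, and 1981 of them had a symbol. Tbxas1 (ENSRNOG00000007918), which encodes thromboxane A synthase, was the named gene closest to Col18a1 (distance 0.13) and to Postn (distance 0.16). Genes without a symbol lay nearer, 3 for Col18a1 and 1 for Postn. Tbxas1 was first for both at 50 M only. At 25 M it lay at 0.24 from Col18a1 and 0.14 from Postn, and Postn was nearer to Col18a1. At 17 M the distances were 0.24 and 0.35, and Col18a1 was nearer to Postn. The mean of Tbxas1 was 33.3 ± 9.51 normalized counts (SD, n = 3) in the naive libraries, and it had 197, 590 and 336 in SNT replicates 1, 2 and 3. With so few reads in naive libraries its pattern is less precise than that of the members. Col18a1 and Postn came next for each other, at a distance of 0.20, with 6 genes without a symbol nearer in either case.

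For Thbs2 the closest named genes were Postn at 0.42, Tbxas1 at 0.50 and Col18a1 at 0.55, all behind genes that have no symbol here, 13 of which lay nearer than Postn. The third for Col18a1 was Myof, which encodes the membrane repair protein myoferlin, at 0.40, and the third for Postn was Thbs2. The distance between Col18a1 and Postn was 0.14 at 25 M and 0.28 at 17 M, while that between Col18a1 and Thbs2 was 0.48 and 0.55. Col18a1 and Postn were thus the closest pair of members in each run. The symbols at hand cover a small part of the genes, so closer genes with a known name may be among those that carry none.

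The surrounding matrix programme was examined in 51 other genes of 8 groups that have a symbol in the study's table of exonic and intronic reads. The list was chosen with earlier results of these data known, so its counts describe the listed genes only. In the 50 M run 44 rose and 2 fell after SNT, by limma with an FDR of 0.1 (Benjamini-Hochberg over all genes tested). Among all 17930 genes tested 29.2% were called higher and 29.4% lower, and among the 1986 tested genes with a symbol 35.3% were called higher and 36.2% lower. The numbers called higher were 44 of 51 at 25 M, where 27.7% of all tested genes were, and 45 of 51 at 17 M, where 26.0% were. Without SNT replicate 1, 45 were called higher and 3 lower at 50 M. The median log2 fold change of the 51 genes was 0.98, beside 0.01 over all genes tested.

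None of the 51 genes reached the log2 fold change of any member, the highest being Tgfbi at 1.93. Matrix genes without a symbol here could not be listed, so this ranking does not extend to all matrix genes of the tissue. At 50 M 34 of the 51 followed the members' order, with all SNT libraries above the naive ones and replicates 1, 3 and 2 from low to high, beside 18.0% of all genes and 23.9% of genes with a symbol. Among all tested genes, 5519 had all SNT libraries above all naive ones, and 3224 of these had this order. The count of 34 thus partly reflects that most of the 51 genes rose. In bulk tissue more cells of a type and more RNA per cell cannot be told apart, for the members as for these genes.

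Basement membrane genes, the group to which Col18a1 belongs by its product, were all called higher (7 of 7, median log2 fold change 1.00). The share called higher was 29.2% over all tested genes and 35.3% among genes with a symbol. Nid2, which encodes nidogen 2, a linker between laminin and collagen IV, rose the most, from 1400 ± 218 in naive to 5321 ± 1718 normalized counts in SNT tissue (SD, n = 3), and its log2 fold change was 1.88 ± 0.25 (SE, adjusted p = 0.00325). The laminin chain gene Lamb1 rose by a log2 fold change of 1.24 (adjusted p = 0.00398). Col4a1, which encodes a chain of collagen IV, the network collagen of basement membranes, rose from 6614 ± 1002 to 13436 ± 3368, that is by 1.00 ± 0.21 on the log2 scale (SE, adjusted p = 0.00911). The smallest increases were those of Nid1, with 0.83, and of the peroxidasin gene Pxdn, with 0.53. All 7 followed the members' order of the SNT libraries, at levels of change well under that of Col18a1. That order was shown by 18.0% of all tested genes and 23.9% of genes with a symbol. It was shown by 3224 of the 5519 tested genes with all SNT libraries above all naive ones.

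The matricellular group, to which Thbs2 and Postn belong, was mixed, with 2 genes called higher, 1 lower and 1 not called (median log2 fold change 0.15). Tgfbi encodes a secreted protein with the same fasciclin domains as periostin and rose from 2172 ± 625 in naive to 8223 ± 1867 normalized counts in SNT tissue (SD, n = 3), and its log2 fold change was 1.93 ± 0.26 (SE, adjusted p = 0.00329). Sparc, which encodes the collagen-binding protein osteonectin, had a log2 fold change of 0.55 (adjusted p = 0.0598), and this call was lost under 7 of 17 alternatives, with an adjusted p of up to 0.553. Fstl1, a secreted follistatin-like gene, fell from 12633 ± 958 to 3642 ± 1876, that is by -1.91 ± 0.31 on the log2 scale (SE, adjusted p = 0.00496). Spock2, a testican gene, had -0.26 and was not called. The shares over all tested genes were 29.2% higher and 29.4% lower, and 35.3% and 36.2% among genes with a symbol. With so few genes listed, the counts are not read as a trait of the group.

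Among fibril-forming and other interstitial collagens, 7 of 9 were called higher (median log2 fold change 1.26), beside 29.2% of all tested genes. Col1a1 and Col3a1, the main collagens of connective tissue, rose from 19685 ± 3628 to 46761 ± 11188 and from 22930 ± 5645 to 54531 ± 11561 normalized counts (SD, n = 3). Their log2 fold changes were 1.23 (adjusted p = 0.00684) and 1.26 (adjusted p = 0.00742). The fibril collagen gene Col5a2 rose the most, by 1.67 (adjusted p = 0.00422), followed by Col5a1 with 1.48. The cartilage-type collagen gene Col9a2, with -0.14, and Col26a1, with -0.07 on a mean of 14.7 normalized counts in either group, were not called, and the ratio of Col26a1 moved from 1.00 to 0.631 without SNT replicate 3.

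Glycoproteins and proteoglycans of the matrix were called higher in 7 of 8 cases and lower in 1 (median log2 fold change 1.19). Over all tested genes 29.2% were called higher and 29.4% lower. Fbn1, which encodes the microfibril protein fibrillin 1, rose by 1.73 (adjusted p = 0.00298), ahead of the olfactomedin-like gene Olfml2b (adjusted p = 0.00544). Efemp1, a fibulin gene, rose by 0.51. Fbln2, which encodes fibulin 2, an elastic fibre and basement membrane protein, fell from 7774 ± 1187 in naive to 3298 ± 905 normalized counts in SNT tissue (SD, n = 3), and its log2 fold change was -1.26 (adjusted p = 0.00470).

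Of the genes that process collagen, 5 of 6 were called higher, beside 29.2% of all tested genes. Bmp1, the protease that trims procollagens at the C-terminal end, rose from 912 ± 140 in naive to 3342 ± 918 normalized counts in SNT tissue (SD, n = 3), and its log2 fold change was 1.84 (adjusted p = 0.00267). The procollagen N-protease gene Adamts2 rose by 1.23 and the collagen chaperone gene Serpinh1 by 1.02 (adjusted p = 0.00966). Plod1, which encodes a lysyl hydroxylase, rose by 0.42, and Fkbp14 had 0.23 and was not called.

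Matrix receptors included integrin subunits through which periostin can act. Of 9 genes 8 were called higher, beside 29.2% of all tested genes. Itgav rose by a log2 fold change of 0.49 (adjusted p = 0.00646) and Itgb1 by 0.85 (adjusted p = 0.00312). The hyaluronan receptor gene Cd44, with 1.63 (adjusted p = 0.00101), and Itgb8, with 1.57 (adjusted p = 0.00360), rose more, whereas the syndecan gene Sdc3 had 0.05 and was not called.

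Matrix proteases and their inhibitors (4 of 4) and genes of TGF-beta signalling (4 of 4) were called higher, beside 29.2% of all tested genes. Mmp2, which encodes a gelatinase that thrombospondin 2 is known to clear, rose from 1048 ± 255 in naive to 3745 ± 1060 normalized counts in SNT tissue (SD, n = 3), and its log2 fold change was 1.82 (adjusted p = 0.00369). Htra3, a serine protease gene, rose by 0.96. Reck, a membrane inhibitor of metalloproteinases, rose by 0.53 and Adamts15 by 0.75. The receptor gene Tgfbr2, whose ligand is known to induce Postn in many cells, rose by 1.21 (adjusted p = 0.00410) and Tgfbr3 by 1.16. Smad4 and Smurf1, a mediator and a ubiquitin ligase of the pathway, rose by 0.85 and 0.91.

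**Figure D4:**
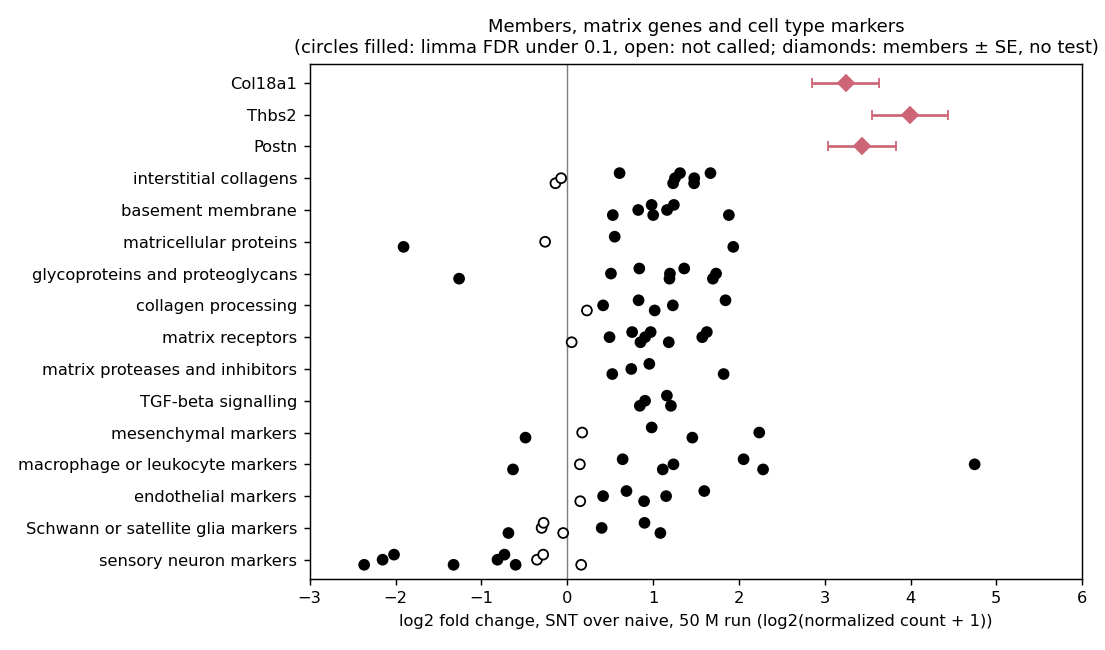
Log2 fold change of SNT over naive libraries at 50 M (horizontal axis, on log2(normalized count + 1)) for Col18a1, Thbs2 and Postn (red diamonds, ± standard error, no test), and for each gene (circle) of the 8 matrix groups and 5 marker lists. Filled circles passed the limma FDR of 0.1. The members, at 3.24, 4.0 and 3.43, lie to the right of every matrix gene listed here, and only Gpnmb of the markers, at 4.75, lies beyond them. Matrix genes outside the list are not shown.

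Markers of the cell types that a ganglion holds were followed beside the members. Sensory neurons were present in every library, with all 10 of their markers above 0 and a summed level of 418100 to 478480 normalized counts in the naive group and 162735 to 293440 after SNT, so that the tissue bore its label. Of these 10 markers 7 were called lower and none higher at 50 M, beside the 29.4% of all tested genes and 36.2% of genes with a symbol that were called lower. The vesicle gene Snap25 fell by a log2 fold change of 2.15 and the peptide gene Calca by 2.37, while the stathmin gene Stmn2, with 0.16, and the peripherin gene Prph, with -0.28, were not called. Without SNT replicate 1 the ratio of means moved from 0.258 to 0.159 for Snap25 and from 0.269 to 0.112 for Calca. The neuron sum was lowest in SNT replicate 2, where the members were highest, and highest among SNT libraries in replicate 1, where they were lowest. This mirror image of the members' order, below the naive libraries, was shown by 17.5% of all tested genes. A link of the neuron sum to the members was not tested.

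The summed level of macrophage and other leukocyte markers went with the members. It was 14148 to 14496 normalized counts in the naive group, beside 27353, 51199 and 33705 in SNT replicates 1, 2 and 3, which is the members' order. Gpnmb held much of this, with 5770, 21283 and 7155 in these libraries, and the sum of the other 7 markers, taken after the values were seen, was 13833 to 14126 in naive and 21583, 29916 and 26550 in SNT libraries, in the same order. Gene by gene, 5 of the 8 markers followed that order, beside 18.0% of all tested genes and 23.9% of genes with a symbol. Among the 5519 tested genes with all SNT libraries above all naive ones, 3224 had it. Of the 8 markers 6 were called higher, beside 29.2% of all tested genes and 35.3% of genes with a symbol. The 1 called lower stands beside 29.4% and 36.2%. Gpnmb, a lysosomal membrane gene of phagocytes, rose from 357 ± 36.9 to 11403 ± 8584 (SD, n = 3), and its log2 fold change of 4.75 (adjusted p = 0.00177) was above that of all members. The ratio of its means was 31.9, and 18.1 without SNT replicate 2. Cyth4 rose by 2.28, Slc7a7 fell by 0.63 and Cd48, with 0.15, was not called. The part of these cells in the members' difference was not tested.

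Mesenchymal markers, for fibroblasts and mural cells, had sums of 3293 to 4423 normalized counts in the naive group, while SNT replicates 1, 2 and 3 had 4685, 4695 and 5309. The sums were thus higher in all SNT libraries, by a ratio of means of 1.24, and did not follow the members' order. A sum weights abundant markers most, and the ratios of single markers ran from 0.716 for Cdh11 to 4.72 for Tbx18. Gene by gene, 1 of the 5 markers followed the members' order, beside 18.0% of all tested genes and 23.9% of genes with a symbol. Of the 5 markers 3 were called higher and 1 lower, with a median log2 fold change of 0.98. Among all tested genes 29.2% were called higher and 29.4% lower, and among genes with a symbol 35.3% and 36.2%. Tbx18, a transcription factor gene of mural cells and fibroblasts, rose by a log2 fold change of 2.24 (adjusted p = 0.00264) and Scara5 by 1.46, whereas the cadherin gene Cdh11 fell by 0.49 and Bnc2, with 0.17, was not called. Whether more mesenchymal cells were present was not tested.

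Endothelial markers summed to 9938 to 10396 normalized counts in naive and to 13955, 17434 and 16633 in SNT replicates 1, 2 and 3, again in the members' order. Gene by gene, 4 of the 6 markers followed it, beside 18.0% of all tested genes and 23.9% of genes with a symbol. Among the 5519 tested genes with all SNT libraries above all naive ones, 3224 had it. Of these 6 markers 5 were called higher, beside 29.2% of all tested genes and 35.3% of genes with a symbol. Fgd5 rose by 1.60 and Heg1 by 1.15, while Ece1, with 0.15, was not called. Tfpi, with 0.42, was called at an adjusted p of 0.0902, but not under 8 of 17 alternatives.

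Schwann and satellite glia markers showed no such order in their sums, which were 304072 to 542230 normalized counts in naive and 358735 to 447497 in SNT libraries. Gene by gene, 2 of the 7 markers followed it, beside 18.0% of all tested genes and 23.9% of genes with a symbol. Of the 7 markers 3 were called higher and 1 lower, beside 35.3% called higher and 36.2% lower among all genes with a symbol. Their median log2 fold change was -0.05. Erbb3 rose by 1.09 and Sox10 by 0.90, Ngfr fell by 0.68, and the myelin gene Pmp22, with -0.30, was not called. Naive replicate 2, which was lowest for all members, had the lowest sum of these markers and of the mesenchymal markers. None of the 36 markers was at 0 in any library at 50 M.

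**Figure D5:**
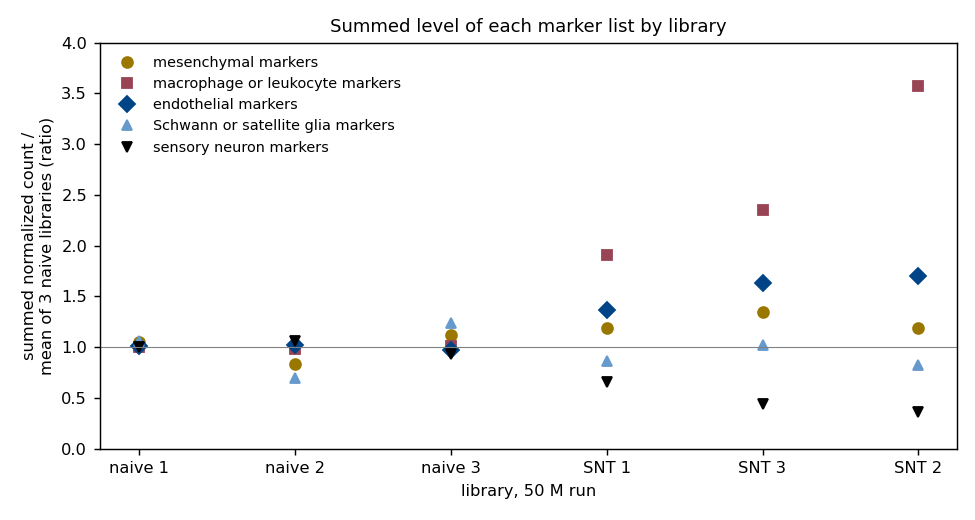
Summed normalized count of each marker list divided by its mean over the 3 naive libraries (vertical axis, linear from 0), in each library of the 50 M run, with the SNT libraries placed in the members' order. The macrophage or leukocyte sum is higher in each SNT library than in the naive ones (27353, 33705 and 51199 normalized counts in SNT replicates 1, 3 and 2), and the sensory neuron sum is lower.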

How the data were processed

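Col18a1, Thbs2 and Postn and the gene lists were chosen with earlier results of these data known. Per the methods, the authors aligned reads to the Rn5 genome with Bowtie (versions of Bowtie and DESeq are not given in the sources used here), allowing 1 mismatch and discarding reads with more than 1 place. Exonic reads per Ensembl gene were counted and divided by DESeq size factors before the values were deposited. These deposited signal values (normalized counts) were whole multiples of 1 step per library in 100% of cases (largest departure 7.57e-10 of a read), from which reads were recovered.

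Each run was fitted alone with limma 3.58.1 (R 4.3.3, trended empirical Bayes, two-sided, Benjamini-Hochberg, FDR 0.1) on log2(normalized count + 1), over genes with reads in at least 3 of 6 libraries. The fit was tested on simulated counts. Recovered reads were also tested with edgeR 4.0.16 and DESeq2 1.42.0. The fit was repeated without each library in turn, with a replicate block, with equal totals, with pseudocounts of 0.5 or 5, with no filter or a mean of at least 10, with an untrended prior and at an FDR of 0.05. Reads of the 3 runs summed were added after the data were seen.

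Named genes were the members, 11 fixed partners, in each list the 2 largest and 2 smallest log2 fold changes at 50 M, and for each member the 3 most alike genes with a symbol. Symbols came from the identifier and symbol columns of a supplementary table that was held in part and covers genes with enough intronic reads, and 1986 identifiers matched. Promoter sequences are RefSeq's (GRCr8), and 2 of 3 members matched. A gene that the lists count is not reported by name here. The authors' fold changes and p-values were not used. As no molecular identifiers were used, counting errors treat copied reads as separate.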

Additional observations from a re-analysis of the deposited data

How the results depend on the processing

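All counts of matrix genes called, the count of all genes called and the log2 fold changes of the members kept their direction and stayed within 1.5 times the count, or within 1 SD between replicates, under every alternative run. With libraries scaled to equal totals the median over all genes moved by 0.15 (log2), and those of Col18a1, Thbs2 and Postn became 3.41, 4.16 and 3.60. Leaving out each library in turn gave 2.86 to 3.68 for Col18a1, 3.62 to 4.48 for Thbs2 and 3.09 to 3.80 for Postn, with the highest values without SNT replicate 1 and the lowest without SNT replicate 2. It gave 43 to 45 matrix genes called higher and 2 to 3 lower at 50 M, 43 to 45 higher at 25 M and 44 to 45 at 17 M, and 8416 to 11346 genes called in all.

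The labels give same-numbered libraries no link beyond the number. The correlations of their deviations from the group means, over 14089 genes, were 0.047, -0.35 and 0.18. Not every library correlated best with its own number. With 3 libraries per group these correlations are tied to each other, so they cannot tell whether same-numbered libraries were prepared together. With the number as a replicate block, 43 matrix genes were called higher and 2 lower at 50 M, 43 higher at 25 M and 44 at 17 M, 9459 genes were called in all, and the members' log2 fold changes stayed at 3.24, 4.0 and 3.43. DESeq2 and edgeR on the recovered reads called 44 matrix genes higher at 50 M. Of the 87 matrix and marker genes, 6 lost their call under at least 1 of 17 alternatives and 8 gained one, with no reversal. Among these, Sparc and Inpp5d lost it under 7, Tfpi under 8, and Nefh and Uchl1 under 1. Without SNT replicate 1, calls were gained for Spock2, Fkbp14, Cd48, Prph and Elavl3, and with equal totals for Sdc3, Bnc2 and Ece1, of which Bnc2 also gained it without SNT replicate 2. With 3 libraries per group, values rest on few pools of animals, and only genes with a symbol could enter the lists.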
